A study of Mus musculus with 12 samples.

Results

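The TRBV13 family of the mouse T cell receptor beta locus was followed in splenic CD8+ T cells of mice given an agonist antibody to CD137 or a control immunoglobulin. The family has 3 gene segments, TRBV13-1, TRBV13-2 and TRBV13-3, and the deposited receptor table uses 4 names for them, because most chains of TRBV13-2 carry the combined name TRBV12-2+TRBV13-2. A cell was a member when it was in the deposited cell table and its TRB contig with the most UMIs (unique molecular identifiers, each standing for 1 captured transcript) had one of these 4 names. Members numbered 15903 of 76281 cells with a TRB chain, or 20.8%, and the cell table held 100540 cells in all. By name there were 5157 cells with TRBV13-1, 563 with TRBV13-2, 4085 with TRBV13-3 and 6098 with TRBV12-2+TRBV13-2. They belonged to 12266 of 53388 TRB clonotypes, or 23.0%. A clonotype is here a TRB V name with 1 nucleotide CDR3 within 1 library, and a count by clonotypes takes each of them once, whatever its number of cells.

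Control animals were 10 wild-type C57BL/6 mice given 100 µg of an immunoglobulin, clone HRPN, and treated animals were 5 wild-type C57BL/6 mice given 10 µg of anti-CD137, clone 3H3. Both received 2 injections a week for 14 days. CD137 is a costimulatory receptor of the TNF receptor superfamily on activated T cells. From the spleens, 3 subsets were sorted. Teff were CD44hi PD1-, Tpex (precursor exhausted) were CD44hi PD1+ Slamf6+ Tim3-, and Tex (exhausted) were CD44hi PD1+ Slamf6- Tim3+. Each treatment and subset is 1 library, so no comparison has a replicate and none has a p-value. No source used here ties a cell to its mouse. Shares have exact Clopper-Pearson 95% intervals and differences have intervals made from them. Both cover counting error only, and by cells they are too narrow, since cells of 1 clonotype are not independent. The sorted cell types could not be checked against marker genes, because no values per gene were used here.

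A beta chain is made by joining 1 V, 1 D and 1 J segment, with bases trimmed from and added to the joints. The V segment encodes the CDR1 and CDR2 loops, which mainly meet the MHC molecule, and the first residues of CDR3, the loop that mainly meets the peptide. Share by clonotypes reflects how often a segment is rearranged and kept in a population, whereas share by cells adds the size each clone has reached. TRBV13 was formerly called Vbeta8 in the mouse and is among the most used families in C57BL/6 T cells.

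On GRCm38 the members lie on the + strand of chromosome 6, interleaved with the TRBV12 family. TRBV13-1 spans chr6:41116007-41116468, TRBV13-2 spans chr6:41121396-41121832 and TRBV13-3 spans chr6:41130147-41130585. TRBV12-2 spans chr6:41118851-41119364, and 2031 bases lie between it and TRBV13-2. The germline CDR1, CDR2 and CDR3 start of each name are shown because they are what the V segment adds to the receptor. CDR1 and CDR2 were read from contigs with the most frequent V region of each name, which was found unchanged in the GENCODE transcript. The CDR3 start is the part of that transcript after the V region. For the combined name the transcript of TRBV13-2 was used, so their CDR3 starts are the same by construction. All are written 5′ to 3′, with capitals at the bases that differ among the names.
TRBV13-1 CDR1: aataGccaCAacTaC
TRBV13-2 CDR1: aataAccaCAacAaC
TRBV13-3 CDR1: aataAccaTGacTaT
TRBV12-2+TRBV13-2 CDR1: aataAccaCAacAaC
TRBV13-1 CDR2: tcatatgGTgctgGcaAc
TRBV13-2 CDR2: tcatatgGTgctgGcaGc
TRBV13-3 CDR2: tcatatgTCgctgAcaGc
TRBV12-2+TRBV13-2 CDR2: tcatatgGTgctgGcaGc
TRBV13-1 CDR3 start: tgtgccagcAgtgatg
TRBV13-2 CDR3 start: tgtgccagcGgtgatg
TRBV13-3 CDR3 start: tgtgccagcAgtgatg
TRBV12-2+TRBV13-2 CDR3 start: tgtgccagcGgtgatg

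The combined name carries the V region of TRBV13-2. Over the 270 bases from the first framework region to the end of the third, 8038 of 8118 contigs with the combined name (99.0%) equalled TRBV13-2 exactly. TRBV13-2 shares 88.1% of these bases with TRBV13-1, 91.5% with TRBV13-3 and 44.1% with TRBV12-2. Contigs with the combined name were long, with a median of 567 bases, as for contigs of TRBV12-2. Medians were 538 for the plain name TRBV13-2, 522 for TRBV13-3 and 514 for TRBV13-1. Where in the contig the further bases lie was not measured. How the authors' software gives a combined name is not stated in the sources used here.

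The plain name moved with the number of UMIs. Of cells with either name, 22.8% had the plain name where the TRB chain had 1 UMI, 20.8% at 2, 14.7% at 3 to 4, 9.89% at 5 to 9, 6.22% at 10 to 19 and 1.33% at 20 or more. Over the 6 libraries together the share thus fell at each step. Within single libraries the steps at low UMIs were uneven, as in control Teff with 16.5% at 2 and 18.5% at 3 to 4 UMIs, but at 20 or more UMIs it was at most 3.67% in every library. By library, the plain name took 9.44% of both names in control Teff, 11.2% in anti-CD137 Teff, 3.70% in control Tpex, 7.87% in anti-CD137 Tpex, 4.47% in control Tex and 4.42% in anti-CD137 Tex. Of 539 clonotypes under the plain name, 79 (14.7%) also appeared in the same library under the combined name with the same CDR3. This share was 9.14% and 5.06% in Teff, 46.7% and 41.0% in Tpex, and 75% and 66.7% in Tex, control first. The plain and combined names are therefore given apart below, and values for the plain name rest on the naming of contigs as well as on the cells.

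**Figure D1:**
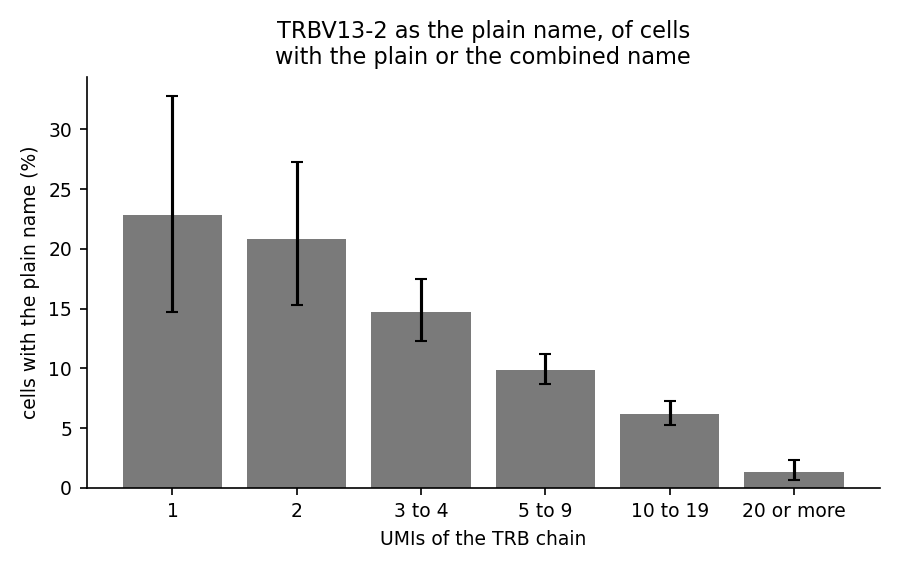
Share of cells under the plain name TRBV13-2 among cells with the plain or the combined name (y axis, percent) by UMIs of the TRB chain (x axis), all 6 libraries together; bars are shares and lines exact 95% intervals. The share falls from 22.8% at 1 UMI to 1.33% at 20 or more.

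Receptor recovery differed between libraries. Of control cells, 79.5% in Teff, 87.5% in Tpex and 80.7% in Tex had a TRB chain. Of cells from anti-CD137 mice, 85.8%, 45.3% and 59.0% had one, in the same order. The anti-CD137 Tpex library stood apart: 66.6% of its TRB barcodes were outside the cell table, and its cells had a median of 1950 UMIs of gene expression against 4729 in control Tpex. Members there had a median of 6 TRB UMIs, against 17 in control Tpex, and 20.4% of them had a second TRB chain, against 7.73%. Other cells with a member's TRB carried the same TRA chain in 88.2% of cases in control Tpex and in 36.8% in anti-CD137 Tpex, with 94.7% and 86.7% in the Tex libraries and 37.9% and 51.4% in the Teff libraries. Each pair of libraries shared between 115 and 718 receptor barcodes, and 0 of these carried the same TRBV13 chain in both libraries. What these differences add to the results below was not tested, and each result that involves anti-CD137 Tpex should be read beside them.

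By clonotypes the family held nearly the same share of every library. It took 23.1% of clonotypes in control Teff (22.5 to 23.7), 22.9% in anti-CD137 Teff (22.3 to 23.4), 23.3% in control Tpex (22.2 to 24.4), 23.1% in anti-CD137 Tpex (21.7 to 24.7), 23.3% in control Tex (20.8 to 25.9) and 21.4% in anti-CD137 Tex (19.2 to 23.7). Every pair of these intervals overlaps. Anti-CD137 minus control was -0.23 percentage points in Teff (-1.04 to 0.58), -0.15 in Tpex (-2.00 to 1.73) and -1.92 in Tex (-5.32 to 1.45). Tex minus Teff was 0.20 points in control (-2.33 to 2.87) and -1.49 in anti-CD137 mice (-3.74 to 0.89). Tpex minus Teff was 0.19 points in control (-1.06 to 1.46) and 0.28 in anti-CD137 mice (-1.30 to 1.90). All 7 of these intervals include 0, which does not show that the shares are equal, and the Tex libraries would still allow differences of several points.

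By cells the family was smaller in both Tex libraries and in control Tpex than in Teff. Members made up 23.2% of control Teff cells (22.6 to 23.8), 19% of control Tpex cells (18.2 to 19.7) and 14.3% of control Tex cells (13.6 to 15.1). In anti-CD137 mice the family was at 22.8% in Teff (22.2 to 23.3), 21.7% in Tpex (20.6 to 22.7) and 17.1% in Tex (16.1 to 18.1). Tex minus Teff was -8.84 points in control mice (-9.77 to -7.88) and -5.71 in anti-CD137 mice (-6.81 to -4.59). Tpex minus Teff was -4.22 points in control mice (-5.15 to -3.29) and -1.12 in anti-CD137 mice (-2.29 to 0.07), an interval that includes 0. Anti-CD137 minus control was -0.40 points in Teff (-1.19 to 0.38), 2.70 in Tpex (1.43 to 3.99) and 2.72 in Tex (1.5 to 3.95).

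These differences by cells moved with a few very large clonotypes. The 10 largest TRB clonotypes held 0.45% of cells in control Teff and 0.71% in anti-CD137 Teff, but 21.2% in control Tpex, 5.42% in anti-CD137 Tpex, 41.7% in control Tex and 22.3% in anti-CD137 Tex. Without them the family was at 23.1% in Teff, 23.6% in Tpex and 24.6% in Tex of control mice, and at 22.7%, 22.3% and 17.9% in those of anti-CD137 mice. Control Tex then lay 1.47 points above control Teff, where it had lain 8.84 points below, and control Tpex lay 0.50 points above. Anti-CD137 minus control turned to -1.30 points in Tpex and to -6.73 in Tex. Of the clonotypes left out, 1 in control Tpex, 0 in control Tex, 1 in anti-CD137 Tpex and 2 in anti-CD137 Tex were members. In anti-CD137 mice the family stayed lower by cells in Tex than in Teff without them.

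**Figure D2:**
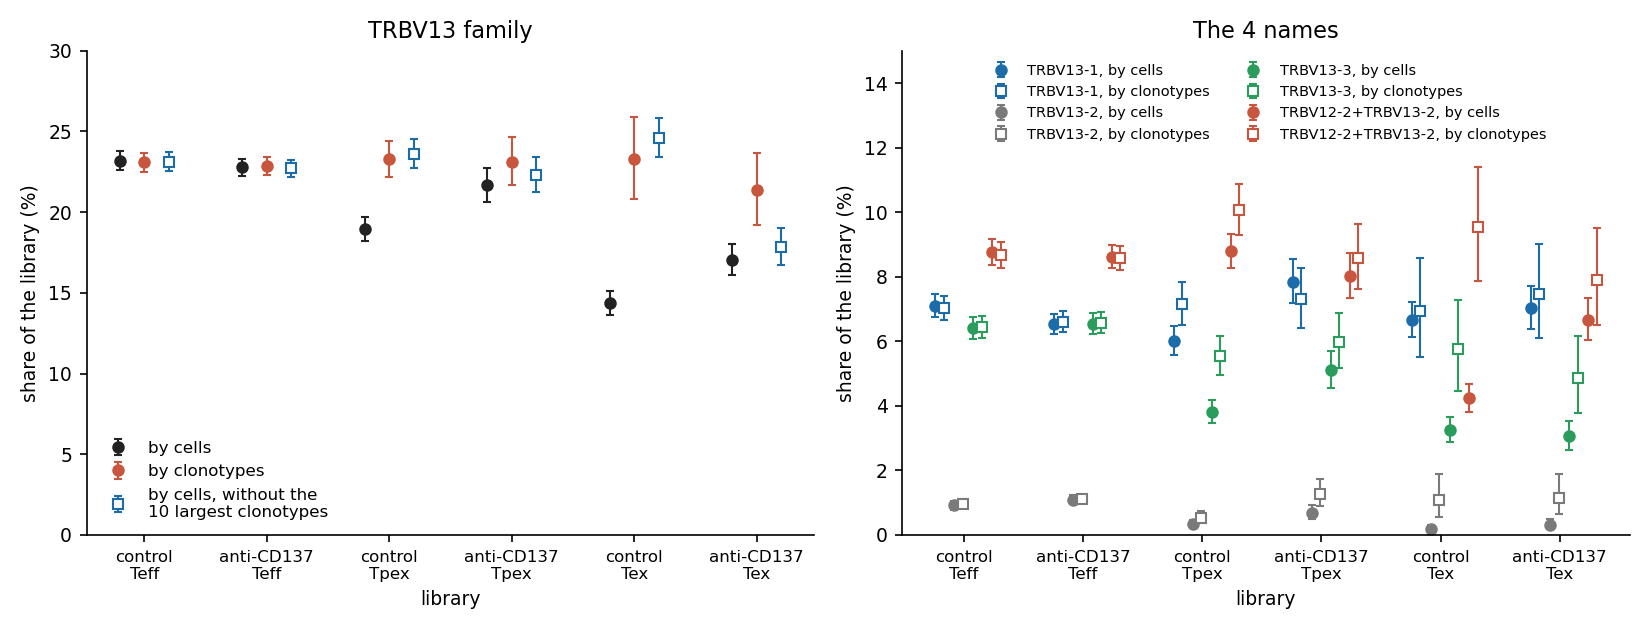
Share of the TRBV13 family (left) and of its 4 names (right) in each library (y axis, percent of TRB cells or of TRB clonotypes), with exact 95% intervals. By clonotypes the family lies between 21.4% and 23.3% in all 6 libraries; by cells it falls to 14.3% in control Tex, and without the 10 largest clonotypes control Tex is at 24.6%.

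TRBV13-1 stayed between 6.00% and 7.84% of cells in the 6 libraries. By cells it was at 7.10% in Teff, 6.00% in Tpex and 6.66% in Tex of control mice, and at 6.52%, 7.84% and 7.02% after anti-CD137. By clonotypes it was at 7.02%, 7.15% and 6.92% in control and at 6.59%, 7.30% and 7.45% in anti-CD137 mice. By cells it was lower after anti-CD137 in Teff, by -0.58 points (-1.05 to -0.11), and higher in Tpex, by 1.84 points (1.03 to 2.67). By clonotypes neither difference had an interval apart from 0. Without the 10 largest clonotypes TRBV13-1 was at 7.62% in control Tpex and 7.71% in anti-CD137 Tpex, and at 11.4% in control Tex against 7.11% in control Teff.

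TRBV13-3 was lower by cells in PD1+ cells. It held 6.40% of control Teff cells (6.07 to 6.75), 3.82% of control Tpex (3.47 to 4.19) and 3.25% of control Tex (2.89 to 3.65). In anti-CD137 mice it held 6.54%, 5.10% and 3.07%. Without the 10 largest clonotypes it was at 6.40% in Teff, 4.85% in Tpex and 5.58% in Tex of control mice, and at 6.52%, 5.39% and 3.95% in those of anti-CD137 mice. By clonotypes the falls were smaller: it took 6.44%, 5.54% and 5.76% in control and 6.57%, 5.98% and 4.87% in anti-CD137 mice. By clonotypes 2 of its differences had intervals apart from 0, Tpex minus Teff in control at -0.89 points (-1.58 to -0.18) and Tex minus Teff in anti-CD137 mice at -1.70 points (-2.85 to -0.36).

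The combined name TRBV12-2+TRBV13-2 was the most used TRBV name by clonotypes in both Teff libraries, out of 22 names. By clonotypes it was at 8.68% in Teff, 10.1% in Tpex and 9.53% in Tex of control mice, and at 8.57%, 8.59% and 7.91% after anti-CD137. By cells it was at 8.76%, 8.79% and 4.23% in control and at 8.62%, 8.03% and 6.66% in anti-CD137 mice. The Tex difference by cells was 2.43 points (1.66 to 3.22), a ratio of 1.57, and this name alone carried most of the family's difference there: with it left out, the family's anti-CD137 minus control in Tex was 0.29 points. Without the 10 largest clonotypes it was at 7.26% in control Tex (6.55 to 8.01) and at 6.85% in anti-CD137 Tex (6.14 to 7.63), intervals that overlap.

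The plain name TRBV13-2 was rare. By cells it was at 0.913% in Teff, 0.338% in Tpex and 0.198% in Tex of control mice, and at 1.09%, 0.686% and 0.308% after anti-CD137. By clonotypes it was at 0.96%, 0.53% and 1.08% in control and at 1.13%, 1.26% and 1.14% in anti-CD137 mice. Its higher share by clonotypes in anti-CD137 Tpex, a ratio of 2.38, stood beside a median of 6 TRB UMIs in members of that library against 17 in control Tpex, and the part of depth in it was not tested. With both names of TRBV13-2 joined, Tpex clonotypes were at 10.6% in control and 9.85% in anti-CD137 mice.

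Set against all TRBV names at 1% or more of either library, members did not stand out by clonotypes or over all cells. A name was counted as past the fold when its shares differed by at least 1.5 times with intervals apart. By cells, anti-CD137 against control had 0% of names past the fold in Teff, 31.6% in Tpex and 60% in Tex. Members past it were none in Teff and Tpex, and TRBV12-2+TRBV13-2 in Tex. Tpex against Teff by cells had 26.3% of names past the fold in control, among them TRBV13-3 at a ratio of 0.60, and 20% in anti-CD137 mice, among them the plain TRBV13-2 at 0.63. Tex against Teff by cells had 57.9% in control, among them TRBV13-3 at 0.51 and the combined name at 0.48, and 52.4% in anti-CD137 mice, among them TRBV13-3 at 0.47 and the plain TRBV13-2 at 0.28. Without the 10 largest clonotypes, control Tex and Teff cells were at 5.58% and 6.40% for TRBV13-3 and at 7.26% and 8.70% for the combined name, neither past the fold. TRBV13-1 was then past it, at 11.4% in control Tex (10.5 to 12.3) against 7.11% in control Teff (6.76 to 7.47). It was also past it by treatment in Tex, with 6.66% after anti-CD137 (5.95 to 7.42). In anti-CD137 mice TRBV13-3, at 3.95% in Tex and 6.52% in Teff, and the plain TRBV13-2, at 0.397% and 1.09%, stayed past it. How many of all names were past the fold in this setting was not counted. By clonotypes, treatment had 0% of names past the fold in Teff, 15% in Tpex and 0% in Tex, and the plain TRBV13-2 in Tpex was the 1 member among them. Tpex against Teff by clonotypes had 0% in control and 10% in anti-CD137 mice, and Tex against Teff had 20% and 25%, with no member past the fold in these.

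Other TRBV names were ranked by how alike their shares by clonotypes ran to those of the members. Likeness was the mean absolute difference of log2 shares over the 6 libraries, each centred on its own mean. Nearest to the family as a whole were TRBV12-1, TRBV1 and TRBV3, each at 0.09. TRBV13-1 was nearest to TRBV12-1 at 0.06, TRBV13-3 to TRBV3 at 0.11 and the combined name to TRBV26 at 0.10. The plain TRBV13-2 had no close neighbour, with TRBV20 the nearest at 0.25.

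Clones of the family were smaller than other clones in PD1+ libraries. Family clonotypes had on average 1.07 and 1.05 cells in control and anti-CD137 Teff, 1.62 and 1.81 in Tpex, and 4.75 and 3.54 in Tex. Other TRBV clonotypes had 1.06 and 1.05, 2.10 and 1.97, and 8.61 and 4.68. The largest family clone had 12 and 23 cells in Teff, 38 and 33 in Tpex, and 81 and 108 in Tex, while the largest other clone had 16 and 23, 1010 and 91, and 845 and 242. Once the 10 largest clonotypes of each library were left out, the means in Tex were 4.75 against 4.48 in control and 2.90 against 3.63 in anti-CD137 mice, family first. In control mice the gap between the family and the rest therefore lay in the 10 largest clones.

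Members differed in clone size in Tex. In control Tex, TRBV13-1 clonotypes averaged 7.42 cells, TRBV13-3 4.36, the combined name 3.42 and the plain TRBV13-2 1.42. In anti-CD137 Tex the means were 4.18, 2.80, 3.74 and 1.20. Those of the plain name leave out cells with the same CDR3 under the combined name. TRBV13-1 had the highest mean of the members in both Tex libraries. In anti-CD137 Tex its 410 cells in 98 clonotypes include 1 clone of 108 cells. The 389 cells of the combined name there, in 104 clonotypes, include 1 clone of 78 cells. Single clones thus bear on the order in that library. Of the 100 largest clonotypes, members numbered 30 and 23 in Teff, 25 and 22 in Tpex, and 22 and 16 in Tex, control first. Of the 10 largest they numbered 4 and 3, 1 and 1, and 0 and 2.

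**Figure D3:**
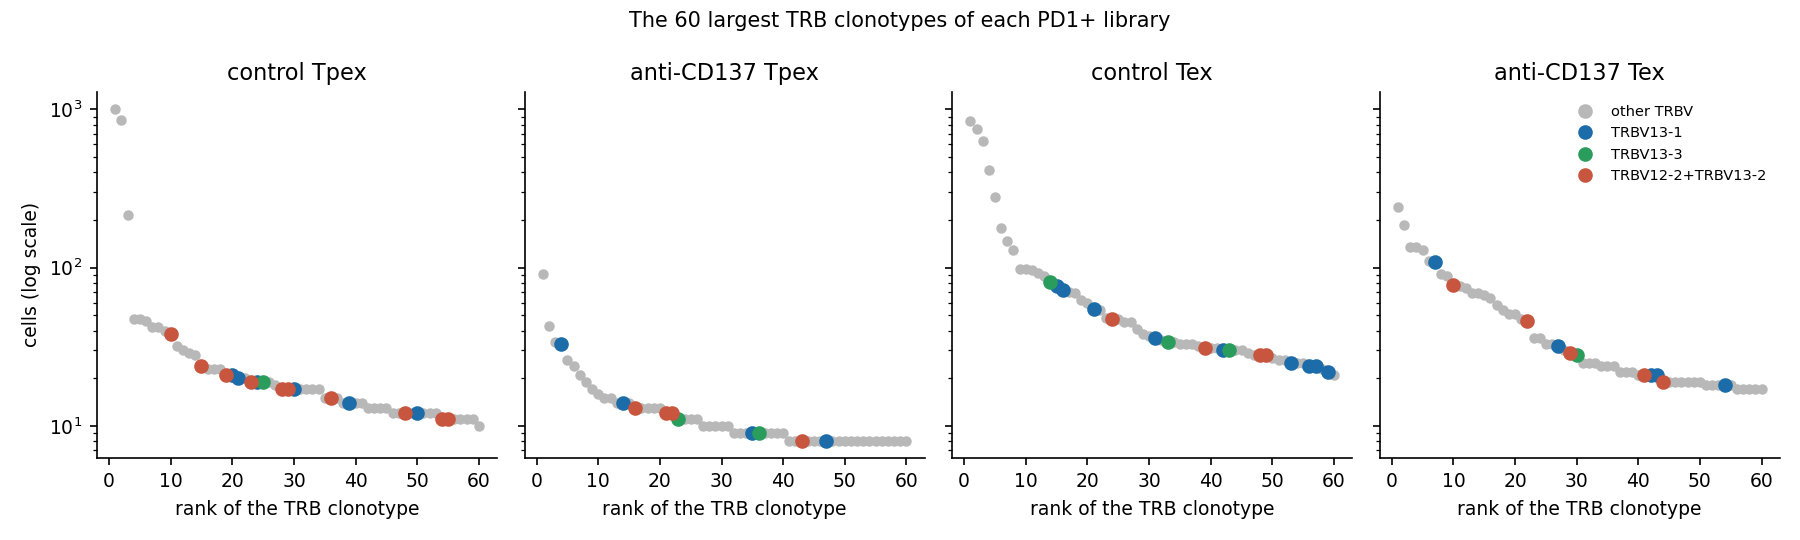
Cells per TRB clonotype (y axis, log scale) against its rank by size (x axis) for the 60 largest clonotypes of each PD1+ library; coloured points are members and grey points other TRBV. In control Tex the 10 largest clonotypes, at 98 to 845 cells, hold no member; in anti-CD137 Tex members with 108 and 78 cells stand at ranks 7 and 10.

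Expanded cells, those whose clonotype had at least 2 cells, were compared after thinning each library to the 5837 TRB cells of the smallest. Of family cells, 4.33% and 3.21% were expanded in control and anti-CD137 Teff, 42.2% and 65.4% in Tpex, and 85.4% and 83.5% in Tex. Other TRBV cells were at 3.87% and 3.65%, 55.5% and 69.7%, and 92.5% and 88.1%. Anti-CD137 minus control was -1.12 points in Teff (-2.62 to 0.38), 23.2 in Tpex (19.2 to 27.2) and -1.82 in Tex (-5.20 to 1.61). The Tpex difference depended on which chains defined a clone: with clonotypes taken as pairs of TRA and TRB CDR3s it was -8.20 points (-12.6 to -3.82). Clonotypes of exactly 2 cells were 10.8% of family clonotypes in control Tpex and 22.3% in anti-CD137 Tpex, beside the low agreement of TRA chains in that library. The Teff libraries, with 3.55% and 2.45% of family clonotypes at 2 cells, had low agreement as well.

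The largest clonotypes of each member show how these receptors were built. The CDR3 of each is printed with germline V and J bases in lower case and the bases between them, left by D, trimming and addition, in capitals.
control Tex TRBV13-1: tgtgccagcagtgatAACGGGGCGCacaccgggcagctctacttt
control Tex TRBV13-3: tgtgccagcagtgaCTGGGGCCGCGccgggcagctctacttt
control Tex TRBV12-2+TRBV13-2: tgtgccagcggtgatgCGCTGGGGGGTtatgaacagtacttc
anti-CD137 Tex TRBV13-1: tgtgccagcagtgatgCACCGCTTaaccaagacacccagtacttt
anti-CD137 Tex TRBV13-3: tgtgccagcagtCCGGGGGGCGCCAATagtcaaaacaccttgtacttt
anti-CD137 Tex TRBV12-2+TRBV13-2: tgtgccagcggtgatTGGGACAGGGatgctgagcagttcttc

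The control Tex clone of TRBV13-1 had 77 cells, was joined to TRBJ2-2 and carried TRAV10N in 73 of 73 paired cells. It had 12 further cells in control Tpex, and 96.1% of its Tex cells lay in deposited cluster 3. The TRBV13-3 clone had 81 cells, also used TRBJ2-2, carried TRAV6-3 in 71 of 71 paired cells and had 5 cells in Tpex. The clone under the combined name had 47 cells, used TRBJ2-7, carried TRAV7-6 in 41 of 41 paired cells and had 24 cells in Tpex and 1 in Teff. The TRB chains of all 3 clones of control mice were thus found in Tpex too.

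In anti-CD137 Tex the TRBV13-1 clone had 108 cells, 1.85% of the library, was joined to TRBJ2-5, carried TRAV3N-3 in 90 of 90 paired cells and had 4 cells in Tpex. Its main place was deposited cluster 4, with 90.7% of its cells. The TRBV13-3 clone had 28 cells, used TRBJ2-4 and carried TRAV6D-6 in 20 of 20 paired cells. Its TRB was also in 9 Tpex cells, of which the 3 paired cells had 3 different TRA chains. The clone under the combined name had 78 cells, used TRBJ2-1, carried TRAV16N in 64 of 64 paired cells and was seen in no other library. In both treatments the largest Tex clone of each of these 3 names had 1 TRA partner in every paired cell.

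The largest clones of the other libraries are printed next in the same way.
control Teff TRBV13-1: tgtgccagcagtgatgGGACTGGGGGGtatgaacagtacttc
control Teff TRBV13-3: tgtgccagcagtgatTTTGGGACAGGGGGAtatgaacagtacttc
control Teff TRBV12-2+TRBV13-2: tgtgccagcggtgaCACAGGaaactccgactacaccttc
anti-CD137 Teff TRBV13-1: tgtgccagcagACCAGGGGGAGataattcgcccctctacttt
anti-CD137 Teff TRBV13-3: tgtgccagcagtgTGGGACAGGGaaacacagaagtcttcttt
anti-CD137 Teff TRBV12-2+TRBV13-2: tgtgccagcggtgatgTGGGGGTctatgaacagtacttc
control Tpex TRBV13-1: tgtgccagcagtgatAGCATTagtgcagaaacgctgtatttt
control Tpex TRBV13-2: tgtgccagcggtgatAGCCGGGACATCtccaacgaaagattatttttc
control Tpex TRBV13-3: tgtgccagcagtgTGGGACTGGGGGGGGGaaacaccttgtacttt
control Tpex TRBV12-2+TRBV13-2: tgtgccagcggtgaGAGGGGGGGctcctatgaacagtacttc
anti-CD137 Tpex TRBV13-1: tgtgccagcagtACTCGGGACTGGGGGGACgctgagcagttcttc
anti-CD137 Tpex TRBV13-3: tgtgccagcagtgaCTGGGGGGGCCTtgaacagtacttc
anti-CD137 Tpex TRBV12-2+TRBV13-2: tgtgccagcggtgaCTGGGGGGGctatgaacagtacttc

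In control Teff these clones were small, with 6 cells for TRBV13-1, 7 for TRBV13-3 and 12 for the combined name. The leading partner was in 3 of 6, 5 of 5 and 11 of 12 paired cells, and the 6 TRBV13-1 cells had 4 different TRA chains. The clone of the combined name, joined to TRBJ1-2, was larger in control Tpex, with 17 cells, and had 1 cell in Tex. The TRBV13-3 clone had 13 cells in control Tex. In anti-CD137 Teff they had 15, 16 and 23 cells, and the clone of 23 cells was the largest TRB clonotype of that library, level with 1 other, with TRAV4-3 in 23 of 23 paired cells. In cluster 6 lay 100% of the cells of the TRBV13-1 clone and 75% of those of the TRBV13-3 clone.

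In control Tpex the clones had 21 cells for TRBV13-1, 6 for the plain TRBV13-2, 19 for TRBV13-3 and 38 for the combined name. The last carried TRAV16 in 30 of 30 paired cells, and the TRBV13-3 clone carried TRAV13N-1 in 19 of 19 and had 9 cells in Tex. In anti-CD137 Tpex the TRBV13-1 clone had 33 cells and the most frequent partner, TRAV12N-1, in 11 of 14 paired cells, with 18 further cells in Tex. The clones of TRBV13-3, with 11 cells, and of the combined name, with 13, had their leading partner in 2 of 6 and 5 of 6 paired cells. Partners were thus mixed within clones of anti-CD137 Tpex, where the libraries of control Tpex and of both Tex gave 1 partner in each clone named here that had a paired cell.

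Fewer Tex cells of the family had their TRB clonotype in Tpex of the same treatment than did other Tex cells. In control mice the share was 68.0% of family cells (65.3 to 70.6) against 83.4% of other cells, and in anti-CD137 mice 53.6% (50.5 to 56.7) against 67.9%. By clonotypes the family was at 45.9% (39.8 to 52.2) against 49.2% (45.8 to 52.6) in control, and at 28.8% (23.6 to 34.5) against 36.1% (33.1 to 39.1) in anti-CD137 mice, with intervals that overlap. No interval of the difference was made for these, and shares whose intervals overlap can still differ. Within the family, the shares by clonotypes in control were 63.6% for TRBV13-1 (51.9 to 74.3), 45.3% for the combined name (35.6 to 55.2), 32.8% for TRBV13-3 (21.6 to 45.7) and 8.33% for the plain TRBV13-2, 1 of 12 clonotypes (0.21 to 38.5). In anti-CD137 mice they were 36.7%, 26.0%, 28.1% and 0 of 15 clonotypes, which allows up to 21.8%. TRBV13-1 lay apart from TRBV13-3 in control, and in anti-CD137 mice its interval overlapped those of TRBV13-3 and the combined name. The plain name cannot be set against the others here, since a match needs the same V name. In Tex, 9 of its 12 control and 10 of its 15 anti-CD137 clonotypes also occurred under the combined name. The count of cells per library, which differs between treatments, bears on how much overlap can be seen, and its part was not tested.

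From the other side, 23.1% of control Tpex members (21.3 to 24.9) and 21% of anti-CD137 Tpex members (18.8 to 23.3) had their clonotype in Tex, against 43.1% and 27.3% of other Tpex cells. By clonotypes these were 9.02% (7.53 to 10.7) for the family and 9.66% (8.80 to 10.6) for the rest in control Tpex, with intervals that overlap. In anti-CD137 Tpex they were 11.3% (9.09 to 13.9) and 15.7% (14.2 to 17.2), with intervals apart. Links from Tex to Teff were rarer: 6.95% of control and 6.76% of anti-CD137 family clonotypes of Tex were in Teff. Between treatments, 0 of 259 control Tex clonotypes of the family were found in anti-CD137 Tex, which allows up to 1.41%, and 6 of 853 other clonotypes were, 0.703% (0.259 to 1.52), so that no difference could be seen at this depth.

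The V segment set the start of CDR3. Of clonotypes, 98.0% under the plain TRBV13-2 and 96.9% under the combined name began with CASG, while 89.4% of TRBV13-1 and 82.6% of TRBV13-3 began with CASS. The names that began with CASG are those with G at the capitalised base of the CDR3 starts above. The next residue was most often D: CASGD opened 61.8% of plain and 63.0% of combined clonotypes, and CASSD opened 53.9% of TRBV13-1 but 37.4% of TRBV13-3. CASR opened 6.46% of TRBV13-1 and 10.5% of TRBV13-3 clonotypes. Among other TRBV the leading start was CASSL, at 26.9%. By library the combined name began with CASGD in 64.0% of Teff, 58.2% of Tpex and 66.0% of Tex clonotypes of control mice, and in 64.3%, 60.2% and 53.8% of those of anti-CD137 mice.

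TRBV13-3 kept less of its V end than the other members. All germline V bases of CDR3 were kept in 29.9% of TRBV13-1, 36.9% of plain TRBV13-2, 34.7% of combined and 14.4% of TRBV13-3 clonotypes. Other TRBV were at 21.3%, but this is not the same measure. Their germline V part of CDR3 has 14 to 21 bases, against 16 in each member, and TRBV10, with no germline match, is left out. The germline CDR3 starts of TRBV13-1 and TRBV13-3 are the same 16 bases, so that the difference between these members is not one of the letters printed. A V base trimmed and made again by chance counts as kept.

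Counted by clonotypes over the 6 libraries together, members had more short CDR3s than other chains. CDR3s of at most 12 residues made up 21.5% of TRBV13-1, 22.9% of TRBV13-3, 17.3% of plain TRBV13-2 and 18.4% of combined clonotypes, against 15.1% of other TRBV. Mean length was 13.76 residues for TRBV13-1 (SD 1.52), 13.66 for TRBV13-3 (SD 1.48), 13.96 for both names of TRBV13-2 (SD 1.48 plain and 1.57 combined) and 13.95 for other TRBV (SD 1.43). The family's mean by clonotypes lay between 13.78 and 13.91 residues in the 6 libraries. By cells, CDR3s of at most 12 residues were more frequent in the family than in other TRBV in the Teff and Tpex libraries. In Tex they were less frequent by cells, at 9.51% against 10.6% in control and 10.7% against 17.3% in anti-CD137 mice.

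**Figure D4:**
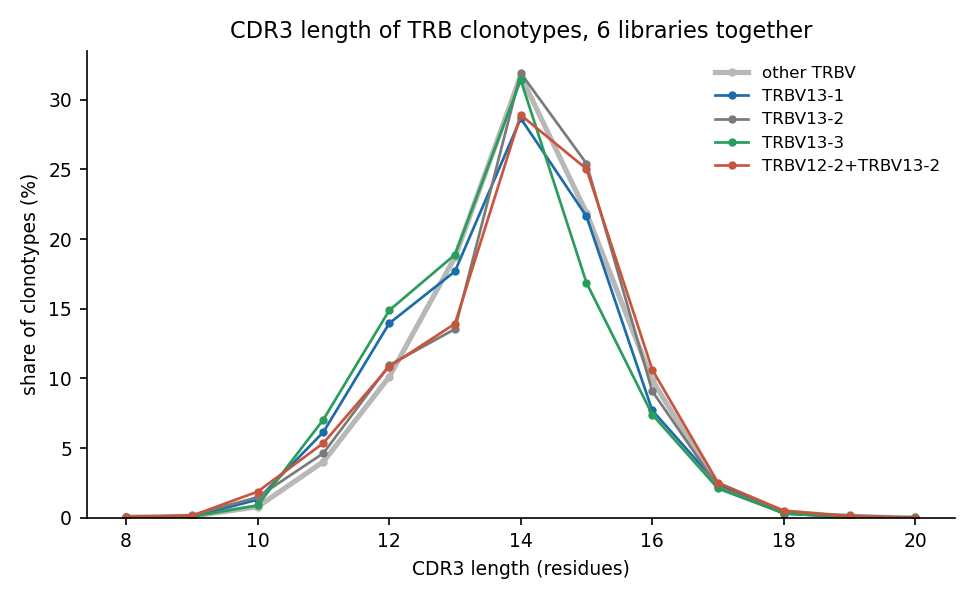
Share of TRB clonotypes (y axis, percent) by CDR3 length in residues (x axis), 6 libraries together, for each name and for other TRBV. Lines of TRBV13-1 and TRBV13-3 lie above other TRBV at 11 and 12 residues; every name peaks at 14.

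Joining segments were used much as by other V segments. In Teff clonotypes TRBJ2-7 led for every name, at 21.3% of TRBV13-1, 16.3% of plain TRBV13-2, 22.1% of TRBV13-3 and 21.8% of combined clonotypes. TRBJ2-1 came next for TRBV13-1 at 13%, plain TRBV13-2 at 12.9% and TRBV13-3 at 12%, and TRBJ2-5 for the combined name at 12.8%. The least used functional segment was TRBJ1-5 for TRBV13-1, at 2.79%, and for TRBV13-3, at 2.18%. It was TRBJ2-2 for the plain TRBV13-2, at 2.93%, and TRBJ1-3 for the combined name, at 2.67%.

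Of 264 pairs of a TRBV name and a TRBJ segment, 14.4% differed from the other TRBV chains, with intervals apart from 0, in 1 direction in both Teff libraries. Members gave 3 of 48 such pairs, or 6.25%, against 16.2% of the pairs of other names. TRBV13-1 used TRBJ1-1 in 12.6% and 12.7% of control and anti-CD137 Teff clonotypes, against 10.0% and 10.7% of others. TRBV13-3 used TRBJ1-6 in 3.69% and 4.67% against 2.62% and 2.54%. The combined name used TRBJ1-3 in 2.85% and 2.51% against 4.43% and 4.46%. These are the 3 pairs.

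Alpha partners were described by TRAV family, since the duplicated copies of a family are nearly alike and reads may not tell them apart. A paired clonotype here is 1 pair of TRB and TRA CDR3s. In Teff, TRAV12, TRAV7 and TRAV6 led for TRBV13-1, at 17%, 13.3% and 10.6% of paired clonotypes. TRAV12, TRAV13 and TRAV6 led for TRBV13-3, at 16.7%, 11.8% and 11%. For the combined name they were TRAV12 at 15.2%, TRAV14 at 14.7% and TRAV7 at 12.5%, and for the plain TRBV13-2 TRAV7 at 14.2%, TRAV12 at 13.9% and TRAV14 at 13.4%. Other TRBV paired most with TRAV12 at 15.6%, TRAV6 at 12.3% and TRAV7 at 11.6%.

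In both Teff libraries TRAV14 was more frequent under the combined name than under other TRBV. It was in 15.6% of control paired clonotypes of the combined name and in 14.0% after anti-CD137, against 9.03% and 9.26% of other TRBV. Of 440 pairs of a TRBV name and a TRAV family, 7 (1.59%) lay past a fold of 1.5 with intervals apart in both Teff libraries. Members gave 1 of 80 (1.25%), which was this pair, and other names gave 1.67%, so the members' count is near the background. The plain name, with the same V region, had 13.8% and 13.1%, with differences from other TRBV whose intervals include 0.

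In both PD1+ subsets the TRAV14 share under the combined name was lower after anti-CD137. In Tex it was 29 of 112 paired clonotypes in control mice, 25.9%, and 10 of 110 in anti-CD137 mice, 9.09%, a difference of -16.8 points (-27.0 to -6.31). In Tpex it was 19% and 9.33%, a difference of -9.63 points (-14.3 to -4.58), and in Teff -1.61 points (-4.13 to 0.88). Other TRBV were at 7.27% and 5.91% in Tex and at 8.45% and 8.22% in Tpex. The 29 control Tex pairs had 29 distinct TRB and 23 distinct TRA chains, and the largest of them held 27 of their 85 cells. With 1 pair for each TRB clonotype, the TRA family of most of its cells, the shares in Tex were 27.9% (19.5 to 37.5) and 8.33% (3.67 to 15.8). Over pairs of at least 2 cells, which leave few, they were 9 of 43 (20.9%) and 4 of 34 (11.8%) in Tex, a difference of -9.17 points (-26.5 to 9.93) that includes 0. In Tpex these were 22 of 114 and 3 of 38, at -11.4 points (-21.9 to 3.69), and in Teff 9 of 28 and 0 of 16, at -32.1 points (-52.4 to -5.90). Both ways of counting were added after the data were seen.

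Over all pairs of a TRBV name and a TRAV family, the difference between treatments had an interval apart from 0 in 2.05% of pairs in Teff, 7.63% in Tpex and 1.79% in Tex. By size, the pair of TRAV14 and the combined name ranked 1 of 280 in Tex and 7 of 380 in Tpex. It was singled out after its values were seen, so its rank is a description. In anti-CD137 Tpex, where the same TRA recurred in 36.8% of cases, the part of that low agreement in a partner's share was not tested. In the Tex libraries the same TRA recurred in 94.7% and 86.7% of cases. TRBV13-1 had TRAV14 in 11.1% and 6.42% of Tex paired clonotypes and TRBV13-3 in 1.61% and 3.23%, with intervals of the difference that include 0.

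**Figure D5:**
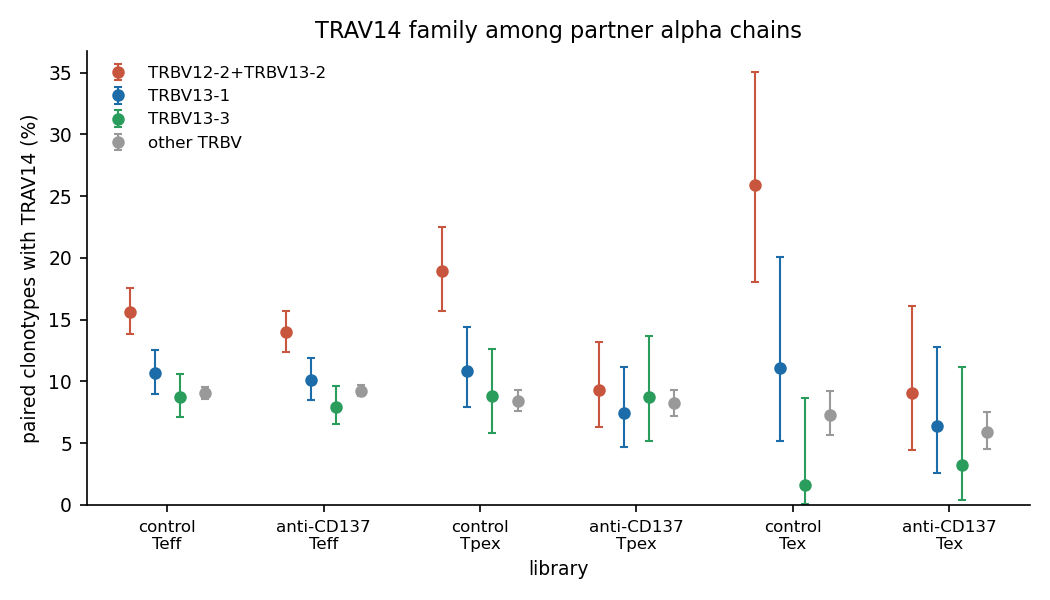
Share of paired clonotypes with a TRAV14 family alpha chain (y axis, percent) in each library, for 3 names of the family and for other TRBV, with exact 95% intervals. Under TRBV12-2+TRBV13-2 it is 25.9% in control Tex and 9.09% in anti-CD137 Tex; the plain TRBV13-2 is not drawn, having at most 34 paired clonotypes in any PD1+ library.

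Members lay in the same deposited clusters as other T cells of their libraries. By cells, 46.8% of control Teff members were in cluster 0 and 42.4% in cluster 2, against 46.9% and 43.2% of other cells, and in anti-CD137 Teff 43.8% and 45.6% against 42.3% and 45.7%. Cluster 1 held 88.0% of control and 83.0% of anti-CD137 Tpex members, against 87.6% and 83.4%. Cluster 3 held 87.2% of control Tex members, against 88.9%, whereas cluster 4 held 81.1% of anti-CD137 Tex members, against 76.7%. The switch between clusters 3 and 4 with treatment was shared by all cells of Tex.

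By cells, 21.3% of 408 pairs of a TRBV name and a cluster differed from the other TRBV chains of the library with intervals apart from 0, and members gave 10 of 76 (13.2%). Taking a clonotype once in each cluster it occurred in, 10% of 400 pairs did so, and members gave 8 of 76 (10.5%). TRBV13-3 was the 1 member whose difference recurred in both Teff libraries by clonotypes. It had 49.8% of control and 46.3% of anti-CD137 Teff clonotypes in cluster 0, against 46.4% and 43.4% of other TRBV, by 3.41 (0.51 to 6.30) and 2.90 points (0.27 to 5.54). In control Tex, clonotypes of the combined name lay in cluster 3 at 81.7% against 72.5%, and in cluster 4 at 8.73% against 16.7%. In anti-CD137 Tex, TRBV13-1 cells lay in cluster 4 at 83.9% against 76.7%, a difference of 7.24 points (3.15 to 10.9). By clonotypes these shares were 66.1% and 63.0%.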

How the data were processed

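Paired gene expression and T cell receptor libraries of 6 sorted populations gave 12 samples, 1 library of each kind per group. Per the labels' protocols, they were made with a Chromium 5′ kit. Cell Ranger 3.0.2, Seurat 4.0.0 and the mm10 build are listed in the submitters' processing notes. The deposited receptor table gives for each of 192524 contigs its V and J segments, CDR3 and count of UMIs and of reads, and 100% of contigs are marked productive. The deposited cell table gives per cell a count of UMIs, the percent of UMIs from mitochondrial and ribosomal protein genes, cell cycle scores and a cluster number from 0 to 8. The deposited score columns were not used. No source used here says how the authors treated doublets, and no doublet caller was run.

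Each contig was matched to its cell through the library name and barcode, and the TRB contig with the most UMIs was kept; 685 cells (0.898%) had a tie. Segment positions and germline bases came from the GENCODE M21 annotation of GRCm38, also called mm10. Counts were made in Python 3.11.15 with pandas 2.3.3. Exact Clopper-Pearson intervals came from scipy 1.17.1, and differences had Newcombe square-and-add intervals. Expanded shares are expected values after drawing 5837 cells without replacement. The steps were tested on simulated data. Named were all 4 members; for each, the 2 most and the 1 least used TRBJ, the 3 most used TRAV families, any TRAV past a fold of 1.5 in both Teff libraries, the largest clonotype of at least 5 cells per library and the 3 most alike TRBV. The members and lists were chosen with earlier results of these data known. Alternatives changed the chain chosen, cells used, UMI minimums, large clones, clonotype definition, thinning and fold. TRB UMIs per member had a median of 10, which limits calling second chains and names. Intervals cover counting error only.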

Additional observations from a re-analysis of the deposited data

Results flagged for a closer look

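TRBV13-1 by cells moved in opposite directions with treatment in 2 subsets: anti-CD137 minus control was -0.58 points in Teff and 1.84 in Tpex, each with an interval apart from 0. By clonotypes both intervals include 0, and without the 10 largest clonotypes control and anti-CD137 Tpex were at 7.62% and 7.71%. The difference between the subsets was not tested.

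TRB barcodes outside the cell table, which enter no comparison above, carried family chains at shares near those of the cells in the table. They made up 22.6% in control Teff, 21.9% in anti-CD137 Teff, 20.6% in control Tpex, 20.8% in anti-CD137 Tpex, 15.9% in control Tex and 18.1% in anti-CD137 Tex. Second TRB contigs of cells in the table were members in 23.5%, 24.2%, 19.7%, 21.5%, 10.6% and 16.8% of cases, in the same order. For each of these 12 shares the interval of the difference from the first chains of cells in the table includes 0. Barcodes outside the table had a median of 3 TRB UMIs in anti-CD137 Tpex.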

How the results depend on the processing

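No paired analysis was possible because each group is 1 library and nothing pairs mice or cells across groups. The 13 main differences, those by treatment and those between subsets by clonotypes, were recomputed in 127 alternatives: 110 kept the value within its interval, 14 moved and 3 reversed. All values are percentage points, anti-CD137 minus control unless named. Leaving out the 10 largest clonotypes reversed the sign for the family's share of cells in Tpex (-1.30, with shares whose intervals overlap) and Tex (-6.73). Outside the 13, it also reversed the sign of control Tex minus Teff (1.47) and Tpex minus Teff (0.50) by cells. Both have shares whose intervals overlap, which does not show that either difference is absent. These alternatives were chosen after seeing the data. Without the combined name, the share of cells in Tex was 0.29 and control Tpex minus Teff by clonotypes was -1.20. The expanded share was the least stable. In Tpex it reversed to -8.20 with paired CDR3s, and was 14.3 with all barcodes, 30.2 for cells of at least 3000 UMIs, 18.6 without the 10 largest clonotypes, 14.9 with no thinning and 2.88 for clones of at least 5 cells. In Tex it was -6.70 with paired CDR3s, -5.68 for cells of at least 3000 UMIs, -7.73 without the 10 largest and -8.25 for at least 5 cells. In Teff it was 0.40 with paired CDR3s, -2.89 with no thinning and 0.48 for at least 5 cells. The cause of these shifts was not tested. Of the members' own shares, 134 alternatives stayed within the interval and 10 moved, 8 of them of the plain TRBV13-2. At a fold of 2, 1 TRBV name was past it by clonotypes in Tpex, against 3 at 1.5. Tex clonotypes of single members number 12 to 106, which limits the precision of their shares.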

Other observations

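The family as a whole recurred between the treatments as identical CDR3 proteins more often than other chains by these counts, with 2 of its 4 names above other TRBV and 2 below. Of distinct V and amino acid CDR3 combinations, 7.77% of control and 7.49% of anti-CD137 family chains were found in mice of both treatments, against 6.02% and 5.76% of other TRBV. By name, the combined name was at 10.2% and 10.2%, TRBV13-1 at 7.33% and 7.28%, TRBV13-3 at 5.61% and 5.19% and the plain TRBV13-2 at 3.11% and 2.29%. Counted together, both names of TRBV13-2 were at 9.51% and 9.22%. Family clonotypes found in both had a mean of 7.23 bases between germline V and J, against 9.89 in those found in 1 treatment, and other TRBV showed the same with 8.09 against 10.29. No interval was made for these shares, and the number of chains per name differs.

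Chains that mark invariant T cells were rare among members. An iNKT alpha chain, TRAV11 joined to TRAJ18, was in 12 of 13374 paired family cells, 0.0897%, and a MAIT alpha chain, TRAV1 joined to TRAJ33, in 4, 0.0299%. Among other TRBV they were in 15 and 6 of 51287 paired cells. TRBV13 is a known partner of both invariant chains in mice.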
